A study of Homo sapiens with 4 samples.

Results

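The genes described here are 9 markers of renal tubular injury and of the shift of tubular cells towards a mesenchymal state, *HAVCR1*, *LCN2*, *VIM*, *KRT18*, *CDH1*, *CDH2*, *FN1*, *TGFB1* and *CTGF*. They were chosen by name, with no threshold on a measured value, and all 9 were found among the 58288 genes of the expression tables. The samples were HK2 cells, an immortalized human proximal tubular cell line, given 50 μM FG-4592 (roxadustat) for 6 h, the time taken from the methods of the study. FG-4592 inhibits the enzymes whose hydroxylation of HIFα subunits leads to their breakdown. There were 2 RNA-seq libraries, replicates 1 and 2, and 2 HIF1α chromatin immunoprecipitation (ChIP-seq) peak lists, also replicates 1 and 2. No library of untreated cells was used here. The values are levels under FG-4592, and neither a response to the compound nor a shift between states could be measured. Nothing in the labels says whether the replicates were separate cultures, so their spread may be technical. The RNA-seq tables held 4442 Mb of coverage (coverage multiplied by transcript length) in replicate 1 and 4202 Mb in replicate 2. The peak lists held 1689 peaks in replicate 1 and 16953 in replicate 2, and the reads behind them are unknown.

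Injured tubular epithelium is known to put kidney injury molecule 1, the product of *HAVCR1*, on its apical surface and to secrete lipocalin 2, the product of *LCN2*. Epithelial cells hold together through E-cadherin and carry keratin filaments, and in a mesenchymal shift these give way to N-cadherin, vimentin filaments and a matrix rich in fibronectin. TGF-β1 is the best known inducer of this program in tubules, and connective tissue growth factor, the product of *CTGF*, acts downstream of it and of the YAP and TAZ coactivators.

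Of the 9 marker genes, 7 had a mean level of at least 1 FPKM (fragments scaled to transcript length and to sequencing depth, summed over the transcripts of a gene), against 59.7% of protein-coding genes. The median marker had a mean of 55.8 FPKM, and the median protein-coding gene 3.37 FPKM. The order of the means was *FN1*, *VIM*, *CTGF*, *CDH2*, *HAVCR1*, *KRT18*, *TGFB1*, *LCN2* and *CDH1*. Neighbours in this order did not overlap between libraries, except *LCN2* and *CDH1*, whose ranges crossed. The gap between *TGFB1* and *LCN2* was the widest, with the mean of *TGFB1* 94.6 times that of *LCN2*. *CDH2*, *HAVCR1*, *KRT18* and *TGFB1* lay within a narrow band, each mean at most 1.17 times the next. With a pseudocount of 1, no marker was over 2-fold apart between the libraries, against 1.15% of the genes with a mean of at least 1 FPKM. No test was run, because both RNA-seq libraries had the same treatment.

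**Figure D1:**
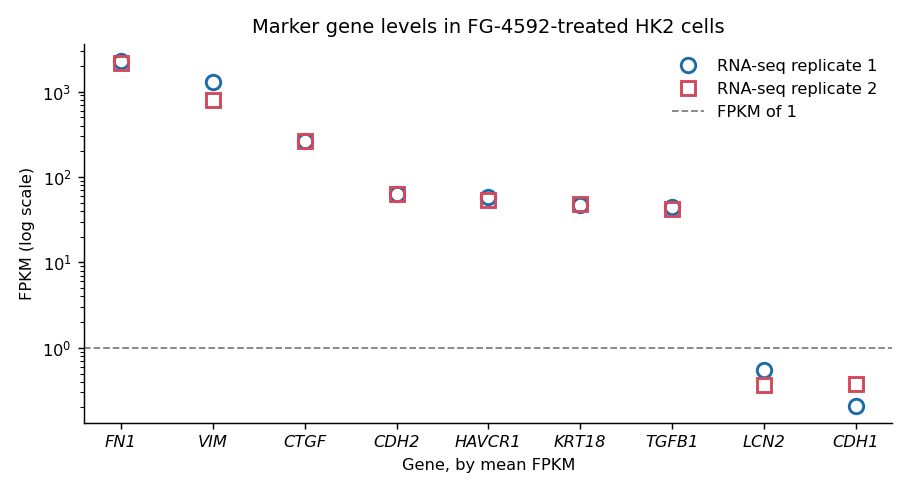
FPKM of the 9 marker genes on a log axis, 1 symbol for each RNA-seq library, with a dashed line at an FPKM of 1. *FN1* lies highest at 2268 and 2179 FPKM, *LCN2* and *CDH1* lie under the line, and *VIM* has the widest gap between libraries among the 7 genes above it.

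*HAVCR1* (ENSG00000113249, GRCh37 chr5:156453753-156496407, minus strand) encodes a phosphatidylserine receptor of injured proximal tubules. Its level was 57.6 FPKM in replicate 1 and 53.9 FPKM in replicate 2, a mean of 55.8 ± 2.68 (SD, n = 2). It ranked 1010th by mean level among the protein-coding genes. Replicate 2 stood 0.934 times as high as replicate 1, and the level was shared by 4 transcripts of at least 1 FPKM. The leading one held 33.2% and 35.6% of the gene's FPKM.

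*LCN2* (ENSG00000148346, GRCh37 chr9:130911350-130915732, plus strand) encodes an iron-siderophore carrier released by the distal nephron in injury. It reached only 0.555 FPKM in replicate 1 and 0.365 FPKM in replicate 2, so that *HAVCR1* was higher by 6.70 and 7.21 on the log2 scale. The pair of injury markers thus stood far apart in the same cells. The mean of *LCN2* was above that of 36.3% of protein-coding genes. Of its receptors, *SLC22A17*, named after its values were seen, was at 6.47 and 5.87 FPKM, while *LRP2* and *MC4R* were listed at 0 in both libraries.

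In a list of 25 further injury genes, 20 had a mean of at least 1 FPKM and the median was 55.4 FPKM. The median was 63.7 FPKM in replicate 1 alone and 36.8 FPKM in replicate 2 alone. The highest were *S100A6*, a calcium-binding protein, at 951 and 959 FPKM, and *SPP1*, which encodes osteopontin, at 644 and 650 FPKM. *ANXA2*, *IGFBP7* and *KRT19* followed with means of 482, 194 and 180 FPKM. *FABP1*, the liver-type fatty acid binding protein, was listed at 0 in both libraries. With a pseudocount of 1, 1 gene of the list was over 2-fold apart between the libraries, the metalloproteinase inhibitor *TIMP2* at 91.1 and 19.7 FPKM, which was named after its values were seen and whose mean is the median of the list.

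*KRT18* (ENSG00000111057, GRCh37 chr12:53342655-53346690, plus strand) encodes a keratin of simple epithelia. It stood at 47.5 FPKM in replicate 1 and 48.0 FPKM in replicate 2, a mean of 47.8 ± 0.335 (SD, n = 2). Its filament partner *KRT8* lies on the opposite strand and shares 525 exon bases with it in the annotation. *KRT8* was at 166 and 162 FPKM, and *KRT19* at 184 and 177 FPKM. Coverage along *KRT18* was uneven. In units that put a transcript's coverage on the FPKM scale, exon 3 had 123 and 122, exon 4 had 13.5 and 13.2, and exon 5 had 10.4 and 10.5. Of 68 annotated *KRT18* pseudogene copies, 22 were above 0, with a sum of 0.916 FPKM in replicate 1 and 1.11 FPKM in replicate 2. The highest copy was *KRT18P5* at 0.291 and 0.272 FPKM. How reads that match several copies were treated is not given in the sources used here. Exon coverage here is a sum over the transcripts of the gene, as the authors' estimates divide it. Retained intron transcripts also overlap exons 4 and 5. The part of the copies or of the division among transcripts in the uneven coverage was not tested.

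*CDH1* (ENSG00000039068, GRCh37 chr16:68771195-68869440, plus strand) encodes E-cadherin, the adhesion molecule of epithelial junctions. Its level was 0.211 FPKM in replicate 1 and 0.379 FPKM in replicate 2, the lowest mean of the 9 markers. Of the other genes in a list of 29 epithelial genes, several junction genes were well above it. *KRT19*, *KRT8*, *CLDN4*, *CLDN1* and *CTNNB1* were the 5 highest, with claudin 4 at 80.7 and 73.7 FPKM and β-catenin, which binds the tail of cadherins, at 69.2 and 77.0 FPKM. Altogether 23 of the 29 had a mean of at least 1 FPKM, and the median was 16.2 FPKM. The 6 others were under 1 FPKM like *CDH1*. They were, named after their values were seen, the epithelial splicing factor *ESRP1*, the transcription factors *OVOL2*, *OVOL1* and *GRHL2*, and the claudins *CLDN7* and *CLDN10*.

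*CDH2* (ENSG00000170558, GRCh37 chr18:25512843-25757910, minus strand) encodes N-cadherin, which is also known in normal proximal tubules. It was at 63.8 FPKM in replicate 1 and 63.7 FPKM in replicate 2. The log2 ratio of *CDH2* to *CDH1* was 8.24 in replicate 1 and 7.39 in replicate 2, a mean of 7.82 ± 0.60 (SD, n = 2), so N-cadherin transcripts were 303 and 168 times as abundant per length. With a pseudocount of 1 the mean ratio came to 5.65, since *CDH1* was close to 0. Of the other cadherins among the paralogs of the markers, *CDH3* was at 0.330 and 0.360 FPKM, *CDH4* at 0.275 and 0.463 FPKM, and *CDH15* at 0.151 and 0.0708 FPKM. None of these 3 reached 1 FPKM in either library. The kidney cadherins of the epithelial list, named after their values were seen, did, with *CDH6* at 72.0 and 74.0 FPKM, above *CDH2*, and *CDH16* at 3.45 and 2.83 FPKM. In the 14 inner exons of *CDH2* the coverage of replicate 2 was between 0.893 and 1.15 times that of replicate 1.

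*CDH2* was also the single marker gene with a replicate 1 HIF1α peak in its body. For that reason 2 windows of 201 bases around peak centres at this gene are shown, both on the plus strand of GRCh37. Among protein-coding genes above 10 to 100 FPKM, the level of *CDH2*, 10.4% had a replicate 1 peak in the gene. The share was 2.74% above 0 to 1 FPKM and 13.8% above 100 to 1000 FPKM. *CDH2* spans the longest stretch of the marker genes, and these shares were not matched for gene length. A single gene with such a peak thus says little about the markers. The replicate 1 window is chr18:25730137-25730337, in intron 1, and the replicate 2 window is chr18:25757431-25757631, before the start of the canonical transcript. Neither overlapped an annotated exon. Capitals mark the core of the hypoxia response element, ACGTG or GCGTG on either strand.
CDH2 intron peak: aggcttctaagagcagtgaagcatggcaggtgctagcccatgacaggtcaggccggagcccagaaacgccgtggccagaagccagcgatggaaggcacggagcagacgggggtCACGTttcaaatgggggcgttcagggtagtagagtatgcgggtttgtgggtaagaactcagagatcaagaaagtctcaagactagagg
CDH2 upstream peak: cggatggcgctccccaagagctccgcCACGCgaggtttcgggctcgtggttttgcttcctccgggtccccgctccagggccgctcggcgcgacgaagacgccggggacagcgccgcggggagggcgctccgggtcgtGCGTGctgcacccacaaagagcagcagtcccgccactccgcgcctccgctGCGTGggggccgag
The intronic window held 1 core and the upstream window held 3. A core stood within 100 bp of the centre in 86.1% of the 1661 replicate 1 peaks and in 26.6% of the 16648 replicate 2 peaks on chromosomes whose sequence was read. A match gives the letters only and does not show binding.

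*VIM* (ENSG00000026025, GRCh37 chr10:17270240-17279592, plus strand) encodes vimentin, the intermediate filament of mesenchymal cells and of cultured cells. It was listed at 1294 FPKM in replicate 1 and 802 FPKM in replicate 2, so replicate 2 was at 0.619 times replicate 1. Of the 91 genes with a mean of at least 500 FPKM, 3 were as far apart as *VIM* or farther, itself included. The log2 ratio of *VIM* to *KRT18* was 4.77 in replicate 1 and 4.06 in replicate 2, a mean of 4.41 ± 0.50 (SD, n = 2). Vimentin transcripts thus outnumbered those of keratin 18 per length in both libraries.

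In absolute coverage the gap between the libraries lay mainly in 1 exon. In the canonical transcript of 10 exons, exon 2 had a coverage of 1505 in replicate 1 and 255 in replicate 2, in FPKM units. Exons 3 to 10 had between 0.932 and 1.11 times the coverage in replicate 2, and their mean was 1192 in replicate 1 and 1214 in replicate 2. Taken from these exons, the log2 ratio to *KRT18* was 4.65 and 4.66, and the 2 libraries no longer differed by more than 1.02 times. These exons were chosen after the data were seen. Exon 1, an upstream first exon, was near 0, and exon 3 was low in both libraries at 78.4 and 73.0.

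The libraries also differed in how the *VIM* estimate was divided among transcripts. ENST00000224237, which starts at exon 2, held 75.7% of the *VIM* FPKM in replicate 1 and 0.658% in replicate 2. ENST00000544301, which adds the upstream exon, was listed at 0 in replicate 1 and held 80.9% in replicate 2. The upstream exon that tells them apart had little coverage in both libraries, 0.0118 and 0.163 in FPKM units, the higher value in replicate 2. Whether the use of transcripts differed between the libraries was not tested. In all, 91.2% of the *VIM* FPKM was assigned to other transcripts in replicate 2 than in replicate 1. Among 11893 genes with several transcripts and a mean of at least 1 FPKM, the median was 13.5%, and 24 genes, *VIM* included, were at or above its value. The antisense genes *VIM-AS1* and *AL133415.1* overlap the gene and were at 1.23 and 0.955 FPKM and at 1.03 and 0.521 FPKM. The header of the tables names no strand option, and reads of a gene and its antisense partner cannot be told apart without strand.

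**Figure D2:**
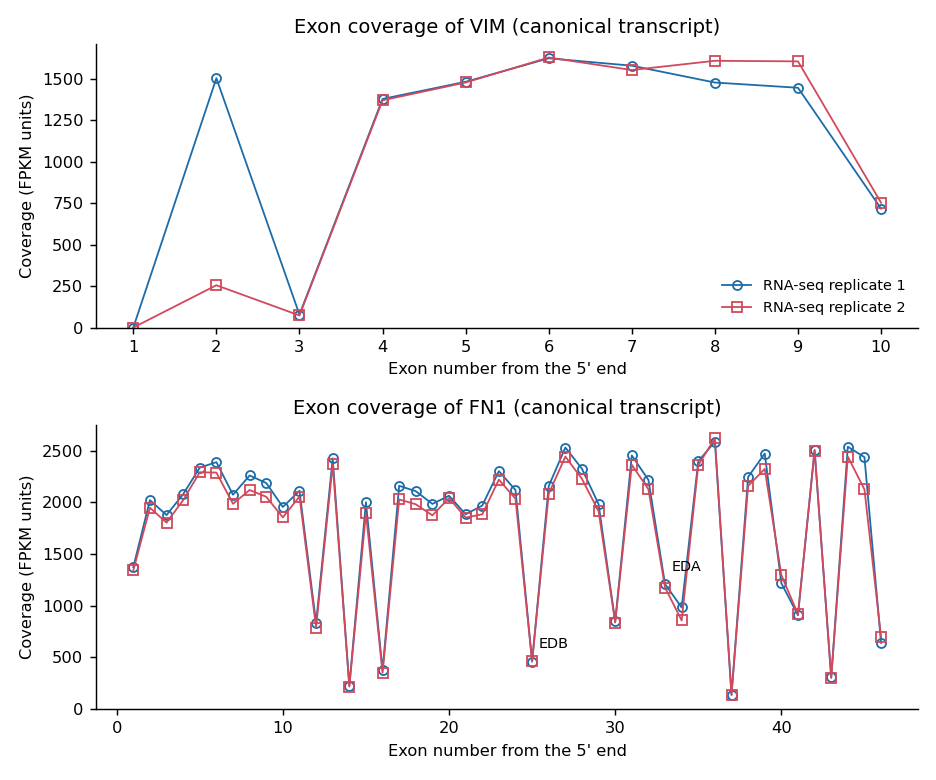
Coverage of each exon of the canonical *VIM* and *FN1* transcripts, in FPKM units, against exon number from the 5′ end, 1 line for each RNA-seq library. In *VIM* the widest gap in absolute coverage is at exon 2 (1505 and 255), and in *FN1* the lines run together, with the EDB and EDA exons marked.

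*FN1* (ENSG00000115414, GRCh37 chr2:216225163-216300796, minus strand) encodes fibronectin, a glycoprotein of the extracellular matrix. It was at 2268 FPKM in replicate 1 and 2179 FPKM in replicate 2, a mean of 2223 ± 63.2 (SD, n = 2), and ranked 7th of all genes. Its transcripts took 1.78% and 1.73% of all bases of coverage. The leading transcript was not the same in both libraries, since ENST00000356005 held 43.6% of the FPKM in replicate 1 and 10.2% in replicate 2. ENST00000456923, which starts within the gene, led in replicate 2 with 28.0% and held 23.6% in replicate 1. Of the 6 marker genes with several transcripts and a mean of at least 1 FPKM, the leading transcript differed between libraries in 2, *VIM* and *FN1*, against 22.7% of such genes overall.

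**Figure D3:**
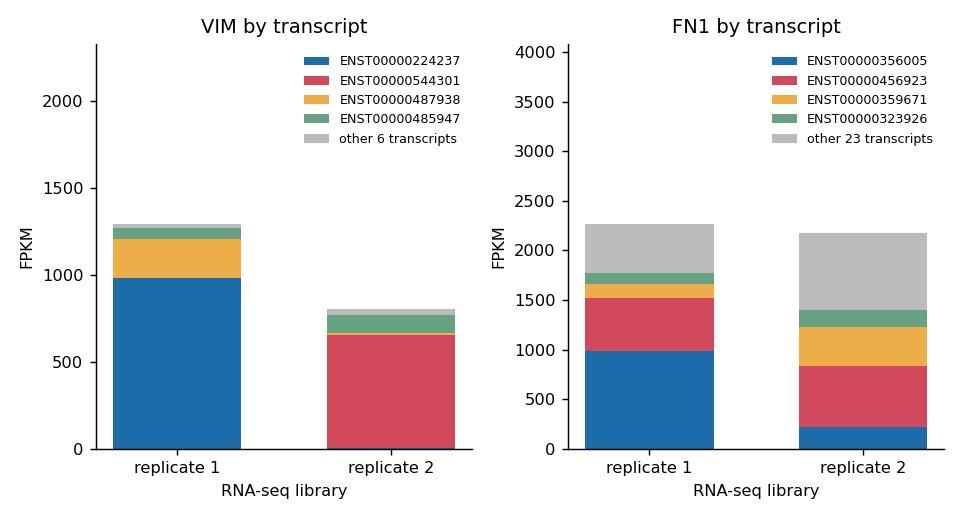
FPKM of *VIM* and *FN1* in each RNA-seq library, stacked by transcript, with the 4 highest transcripts of each gene in colour and the others in grey. In *VIM* the leading transcript holds 980 FPKM in replicate 1 and another holds 648 FPKM in replicate 2, while the *FN1* totals are close at 2268 and 2179 FPKM.

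EDA and EDB are alternatively spliced fibronectin exons, known from embryonic tissue, wound repair and fibrosis. In GRCh38, the build of the expression tables, EDA lies at chr2:215380811-215381080 and EDB at chr2:215392931-215393203, exons 33 and 25 of 46 in the canonical transcript. Shares were taken over the coverage of *FN1* transcripts that span the exon and either hold or skip it. By this count, 27.4% carried EDA in replicate 1 and 50.1% in replicate 2. For EDB the shares were 11.3% and 21.7%, so both shares differed nearly 2-fold between libraries of the same treatment. The EDB count leaves out ENST00000456923, whose 5′ end at 215393147 lies within the EDB exon. The listed coverage of the exons, summed over all *FN1* transcripts, did not. EDA had 1208 and 1175 and EDB had 458 and 458, in FPKM units. These values rest on the same transcript estimates and not on a separate count of reads. The EDB value includes the part of ENST00000456923 that lies in this exon. Set against the median inner exon, chosen as a yardstick after the data were seen, EDA was at 57.7% and 58.0% and EDB at 21.9% and 22.6%. The mean EDA share by transcripts was 38.8 ± 16.0% (SD, n = 2), and the exon against the mean of its neighbours gave 77.2 ± 2.30%, so the EDA share depended on how it was counted. Of these neighbours exon 34 was itself low, at 981 and 856, while exon 32 was at 2217 and 2126, in FPKM units, and the low neighbour raises this share. Coverage also dipped at exons other than EDA and EDB, and 5 of 44 inner exons, EDB among them, were under 0.25 of the median in both libraries.

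Fibronectin is bound by integrins and syndecan 4. *ITGB1* was at 352 and 371 FPKM, *SDC4* at 210 FPKM in both libraries, and *ITGB3* at 119 and 113 FPKM. *ITGAV* and *ITGA5* had means of 72.9 and 41.5 FPKM. Of 10 receptors of the marker proteins, 8 had a mean of at least 1 FPKM.

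The *FN1* promoter is shown because the gene had a replicate 2 peak at its start. The sequence comes from RefSeq (GRCh38.p14), chr2:215436173-215436318 on the minus strand, and leaves out bases that lie in annotated *FN1* exons. Capitals mark a cyclic AMP response element, TGACGTCA, which 1.65% of 35116 promoters held in the 250 bases before the start, on either strand.
FN1 promoter: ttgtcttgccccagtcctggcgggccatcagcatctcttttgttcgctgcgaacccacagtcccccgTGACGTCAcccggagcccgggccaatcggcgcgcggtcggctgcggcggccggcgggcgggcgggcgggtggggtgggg
*FN1* was the single marker gene with this element among the 7 with a RefSeq promoter entry. The 2 without an entry were *KRT18* and *CDH1*.

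Of 28 mesenchymal genes, 19 had a mean of at least 1 FPKM, and the median was 24.8 FPKM. *TPM1*, *SPARC*, *ITGB1* and *THBS1* were among the highest, with means of 657, 452, 361 and 143 FPKM. They encode tropomyosin 1, a collagen-binding matrix protein, integrin β1 and thrombospondin 1. Genes known from myofibroblasts and fibroblasts stood both above and below the median of the list. Those given here, other than *FAP*, were named after their values were seen. *TAGLN*, which encodes transgelin, was at 125 and 131 FPKM, and the collagen genes *COL5A1* and *COL1A1* had means of 67.9 and 38.7 FPKM. *ACTA2*, which encodes smooth muscle actin, was at 0.494 and 0.502 FPKM, the collagen gene *COL1A2* was at 0.0401 and 0 FPKM, and *FAP* was listed at 0 in both libraries.

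Of 13 transcription factors known to drive epithelial to mesenchymal transition, 7 had a mean of at least 1 FPKM. The highest was *TCF3* at 27.1 and 25.9 FPKM. The E-cadherin repressors *SNAI1* and *SNAI2* were at 17.8 and 20.4 FPKM and at 10.5 and 12.4 FPKM. *ZEB2* and *TWIST1* were near 5 to 6 FPKM, with 5.82 and 6.25 FPKM for *ZEB2* and 5.72 and 5.08 FPKM for *TWIST1*. *ZEB1* and *TCF4* followed with means of 2.69 and 1.22 FPKM. *FOXC2*, *SNAI3*, *KLF8* and *GSC* had means of 0.766, 0.250, 0.216 and 0.0215 FPKM, and *PRRX1* and *TWIST2* were listed at 0 in both libraries.

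*TGFB1* (ENSG00000105329, GRCh37 chr19:41807492-41859827, minus strand) encodes TGF-β1, the cytokine that drives renal fibrosis. It was at 45.1 FPKM in replicate 1 and 41.9 FPKM in replicate 2, a mean of 43.5 ± 2.24 (SD, n = 2). A single transcript, ENST00000221930, held 98.3% and 97.0% of it. *HNRNPUL1* lies on the opposite strand with 215 shared exon bases and was at 81.9 and 73.7 FPKM. Of the other isoforms of the cytokine, *TGFB2* was at 22.9 and 25.9 FPKM and *TGFB3* at 2.05 and 1.98 FPKM, so *TGFB1* was the highest of the 3 in both libraries.

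In the TGF-β pathway list, 27 of 32 genes had a mean of at least 1 FPKM, and the median was 10.9 FPKM. The 5 highest were *LTBP4*, which tethers latent TGF-β to the matrix, at 140 and 138 FPKM, the activating integrin *ITGAV*, the target *ID1* at 56.7 and 52.8 FPKM, and the regulators *TGIF1* and *PMEPA1* with means of 52.0 and 31.8 FPKM. *BMP7*, an antagonist of TGF-β signalling in tubules, was listed at 0 in both libraries. The receptor *TGFBR1*, named after its values were seen, was the 1 gene of the list over 2-fold apart with a pseudocount of 1, at 15.9 and 6.51 FPKM.

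*CTGF* (ENSG00000118523, GRCh37 chr6:132269316-132272512, minus strand) encodes a secreted matricellular protein, now named CCN2. It was at 267 FPKM in replicate 1 and 265 FPKM in replicate 2, a mean of 266 ± 1.54 (SD, n = 2), all from 1 transcript. Its relatives were spread over a wide range. *CYR61* was at 936 and 946 FPKM, *NOV* at 9.04 and 8.78 FPKM and *WISP2* at 4.16 and 3.35 FPKM, while *WISP3* had a mean of 0.0521 FPKM and *WISP1* was listed at 0. The antisense gene *AL133346.1* shares 195 exon bases with *CTGF* and was at 29.8 and 13.5 FPKM.

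All 16 genes of the YAP list, targets and components of the pathway, had a mean of at least 1 FPKM, and the median was 43.8 FPKM. After *CYR61* came *AXL*, *WWTR1*, which encodes TAZ, *CRIM1* and *AMOTL2*, with means of 102, 83.7, 83.1 and 76.8 FPKM. The *CTGF* promoter is shown because the gene belongs with these targets of TEAD factors, the DNA-binding partners of YAP. It comes from RefSeq (GRCh38.p14), chr6:131951374-131951622 on the minus strand, with the TEAD motif GGAATG in capitals.
CTGF promoter: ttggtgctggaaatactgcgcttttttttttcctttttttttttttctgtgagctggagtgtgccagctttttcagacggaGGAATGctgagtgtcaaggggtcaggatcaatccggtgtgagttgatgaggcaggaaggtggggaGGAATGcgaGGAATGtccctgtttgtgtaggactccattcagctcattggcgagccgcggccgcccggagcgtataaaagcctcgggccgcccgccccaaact
It held 3 copies of the motif, whose first bases lay 169, 104 and 95 bases before the start. On either strand, 11.9% of promoters held at least 1. *LCN2* held 2 copies, and the other 5 marker genes with an entry held none.

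The other paralogs of the markers were mostly low. Of 19 paralogs, 8 had a mean of at least 1 FPKM, and the median was 0.369 FPKM. Among relatives of vimentin, nestin (*NES*) was at 29.6 and 29.4 FPKM, and *DES*, *PRPH* and *GFAP* had means of 0.283, 0.232 and 0.0857 FPKM. *KRT20* had a mean of 0.120 FPKM. Of the relatives of *HAVCR1*, *TIMD4* had a mean of 0.709 FPKM and *HAVCR2* of 0.0588 FPKM.

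**Figure D4:**
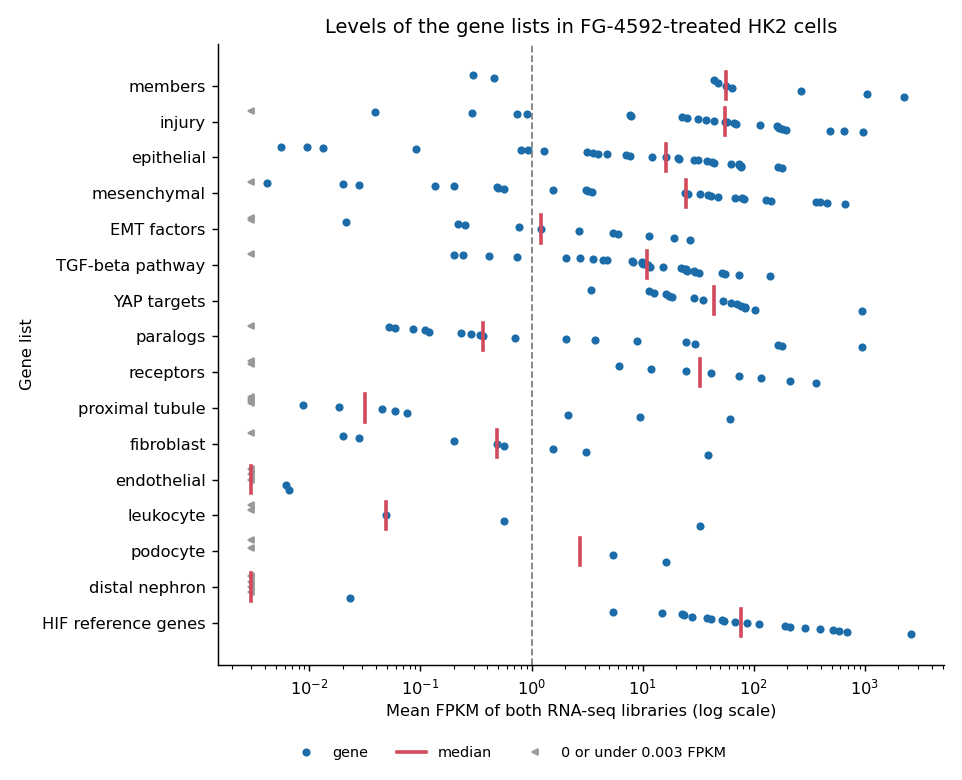
Mean FPKM of each gene in the marker set and in 15 further lists on a log axis, 1 point for each gene, with a bar at the median of each list and a dashed line at 1 FPKM. The HIF list has the highest median at 77.2 FPKM, and the proximal tubule, endothelial, leukocyte and distal nephron lists have medians under 0.1 FPKM.

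The cell type of the label was compared with its markers. Of 12 proximal tubule markers, 3 had a mean of at least 1 FPKM, *GGT1* at 62.3 and 58.5 FPKM, *MME* at 10.1 and 8.94 FPKM and *SLC5A2* at 2.59 and 1.70 FPKM. The list summed to 75.2 FPKM in replicate 1 and 69.3 FPKM in replicate 2, most of it *GGT1*. The endocytic receptor *LRP2*, the organic anion transporters *SLC22A6* and *SLC22A8* and the nuclear receptor *HNF4A* were listed at 0 in both libraries. Defining markers of the proximal tubule were thus at 0 although the label names a proximal tubular line. No endothelial marker and no distal nephron marker reached a mean of 1 FPKM, with *PECAM1*, *KDR*, *TEK*, *UMOD*, *SLC12A1*, *AQP2* and *CALB1* listed at 0. Of the leukocyte markers *CD68* reached it, at 33.6 and 31.5 FPKM, with *PTPRC* and *CD3E* at 0, and of the podocyte markers *SYNPO* and *PODXL*, with *NPHS1* at 0. Of 9 fibroblast markers, 3 reached it, *COL1A1* at 38.7 FPKM in both libraries, *LUM* and *POSTN*, and *PDGFRA* was listed at 0. The fibroblast count was 1 at a threshold of 5 FPKM and 5 with TPM in place of FPKM, and the leukocyte count was 2 with TPM or at a threshold of 0.5 FPKM. In bulk samples fewer cells of a type and less RNA per cell cannot be told apart, and the part of other cells in the marker levels was not tested.

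The replicate 1 list held 1689 HIF1α peaks over the whole genome. A promoter peak was a peak within 1 kb of any annotated start site of a gene (GRCh37), and none of the 9 marker genes had one in replicate 1, against 5.46% of protein-coding genes and 8.60% of those with a mean of at least 1 FPKM. At these shares fewer than 1 of 9 genes would have one, so the count of 0 says little about the markers. The 1 replicate 1 peak within 10 kb of a marker was the *CDH2* peak, chr18:25730058-25730417, whose centre lay in intron 1, 26.9 kb after the start of the canonical transcript. None of its bases lay in an exon, and no replicate 2 peak overlapped it. Most replicate 1 peaks had no such overlap, since 20.4% of the 1689 overlapped a replicate 2 peak. Its window is printed above beside the values of *CDH2*.

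For the other 8 genes the nearest replicate 1 peak lay outside the gene. It was 14.0 kb from *TGFB1* (chr19:41873803-41874096), where the nearest start site of a protein-coding gene was that of *B9D2*, 3.88 kb from the peak centre. It was 53.2 kb from *KRT18*, at the start of *EIF4B*. The distances were 105 kb for *LCN2*, 225 kb for *FN1*, 241 kb for *VIM*, 312 kb for *CTGF*, 894 kb for *CDH1* and 2138 kb for *HAVCR1*. Distances were not taken for other genes, so these values say little about the markers.

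In a list of 20 genes known as HIF targets, 16 had a promoter peak in replicate 1 and 13 in both replicates, so the replicate 1 list did hold peaks at such genes. No marker gene had a promoter peak in both replicates, against 1.75% of protein-coding genes. Among the other lists the genes with promoter peaks in both replicates were *ITGB1* and *LOX* in the mesenchymal list, *ID2* in the TGF-β list and *AJUBA* in the YAP list. *LOX*, which crosslinks collagen, was at 31.3 and 33.8 FPKM, *ID2* at 3.61 and 3.49 FPKM and *AJUBA* at 36.0 and 33.8 FPKM. No gene of the injury, epithelial or transcription factor lists had one in both.

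In replicate 2, 7 of the 9 marker genes had a promoter peak, all but *HAVCR1* and *LCN2*, against 13.9% of protein-coding genes and 20.0% of those with a mean of at least 1 FPKM. With the 5′ end of the gene as the only start site, 5 did, without *VIM* and *CDH1*, against 5.86% of protein-coding genes. The count of 7 takes any annotated start site, of which *CTGF* had 1 and *FN1* 27. The *CDH1* peaks lay 64.5 and 97.1 kb after the start of its canonical transcript. In *VIM* the first peak lay on exon 2, where ENST00000224237 starts, and the 5′ end of the gene is at an upstream exon with little RNA coverage. Within 10 kb of the markers lay 44 replicate 2 peaks, 24 of them in *FN1*. *CDH2* and *TGFB1* had 5 each, *VIM* 4, *CTGF* 3, *CDH1* 2 and *KRT18* 1. None overlapped a replicate 1 peak. Of all 16953 replicate 2 peaks, 1.96% did, so the lack of overlap says little about the markers. *LCN2* had its nearest replicate 2 peak 10.0 kb away and *HAVCR1* 69.5 kb away. The other markers all had a replicate 2 peak in the gene. Among protein-coding genes 66.5% had one above 10 to 100 FPKM, 77.3% above 100 to 1000 and 68.4% above 1000 FPKM. The share was 21.7% above 0 to 1 FPKM. Peaks in the markers at the higher levels thus say little about these genes.

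These peaks followed exons. Of the bases of the 44 peaks, 84.7% lay in annotated exons, and the centres of 31 peaks lay in an exon of the marker's canonical transcript. Over all replicate 2 peaks the share was 84.5%, and over all replicate 1 peaks 32.9%, so the share at the marker genes was close to that of their whole list. Peaks touched 25 of 46 canonical exons of *FN1*, among them the EDB and EDA exons, and all 5 exons of *CTGF*. A core ACGTG or GCGTG stood within 100 bp of the centre in 15 of the 44 peaks (34.1%). Among all replicate 2 peaks whose sequence was read, the share was 26.6%, and the difference was not tested.

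Of the exon bases of the canonical transcript, replicate 2 peaks covered 96.7% in *CTGF*, 69.2% in *FN1* and 67.6% in *VIM*. The shares were 51.1% in *CDH2*, 41.8% in *TGFB1* and 33.5% in *KRT18*. Among protein-coding genes the pooled share moved with the RNA level. It was 3.75% for genes above 0 to 1 FPKM, 7.54% above 1 to 10, 21.1% above 10 to 100, 39.9% above 100 to 1000 and 57.6% above 1000 FPKM. *CTGF* had the highest share of the 472 genes of its level. In *FN1* the share was reached or passed by 4 of 19 genes above 1000 FPKM, itself included. Replicate 1 peaks covered far fewer exon bases, and their pooled share was also higher at each higher level, at 0.0456%, 0.127%, 0.239%, 0.351% and 0.747%. The part of RNA or of transcription in the peaks was not tested.

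In *HAVCR1*, at 55.8 FPKM, no exon base lay in a replicate 2 peak, while 3597 of the 5659 protein-coding genes above 10 to 100 FPKM (63.6%) had some, and the others had none. *CDH1* stood apart from its level. In *CDH1*, at 0.295 FPKM, 51.3% of the exon bases lay in replicate 2 peaks, a share reached by 96 of the 4083 genes above 0 to 1 FPKM, itself included. Its 2 peaks were chr16:68835573-68835804 on exon 3 and chr16:68867190-68869438 on exon 16, the last exon, with 96.6% and 99.9% of their bases in exons. The RNA-seq coverage of exon 16 was 0.204 and 0.359, in FPKM units. The *CDH1* exon peaks thus stood without matching RNA in the RNA-seq libraries, and the cause was not tested.

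**Figure D5:**
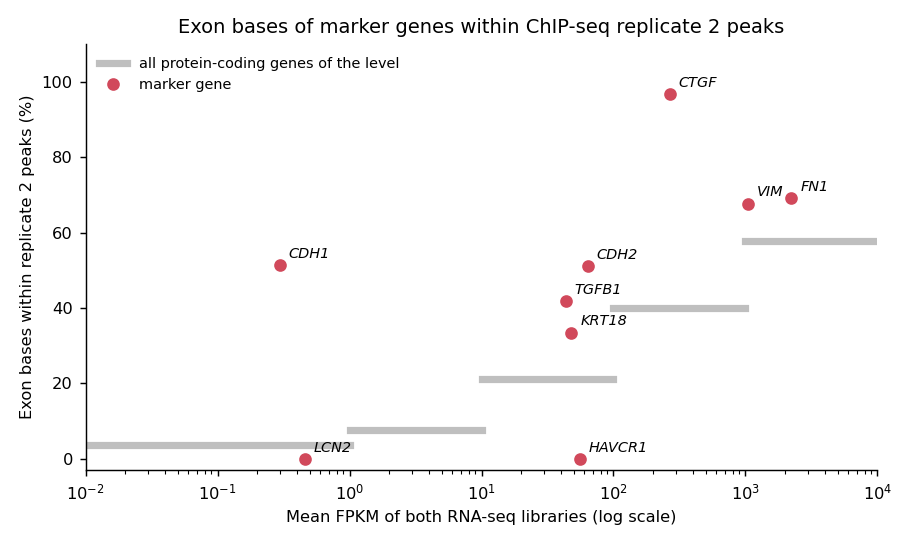
Share of the canonical exon bases of each marker gene that lay within ChIP-seq replicate 2 peaks, against mean FPKM on a log axis, with grey bars for the pooled share of all protein-coding genes at each level. *CTGF* is highest at 96.7%, *CDH1* lies far above the bar of its level (51.3% against 3.75%), and *HAVCR1* and *LCN2* lie at 0.

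Few replicate 2 promoter peaks at the markers lay mainly outside exons. Counting only peaks with at most 50% of their bases in exons, a choice made after the data were seen, 2 of 9 markers had one, *CDH2* and *FN1*, against 1.21% of protein-coding genes. The *CDH2* peak, chr18:25757187-25757875, had its centre at -437 bp from the start of the canonical transcript and 7.11% of its bases in exons. It is the upstream window with 3 cores printed above. The *FN1* peaks of this kind lay inside the gene, and the peak at the 5′ end of *FN1*, chr2:216300324-216300829, had 82.8% of its bases in exons.

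The *TGFB1* promoter is shown because *TGFB1* had a replicate 2 peak at its start, chr19:41858652-41859814, which lay wholly in exon 1, and a core in the bases before it. The sequence comes from RefSeq (GRCh38.p14), chr19:41353923-41354172 on the minus strand, with the core in capitals.
TGFB1 promoter: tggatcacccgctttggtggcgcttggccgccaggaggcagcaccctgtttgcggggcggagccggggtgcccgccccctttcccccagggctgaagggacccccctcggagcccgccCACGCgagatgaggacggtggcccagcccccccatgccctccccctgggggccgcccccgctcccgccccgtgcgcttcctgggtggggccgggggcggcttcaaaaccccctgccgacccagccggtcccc
The core began 132 bases before the start. Of 35116 promoters, 43.2% held ACGTG or GCGTG on either strand in the 250 bases before the start. Of the 7 marker genes with an entry, *CDH2* and *TGFB1* held it, with 1 each.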

How the data were processed

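HIF1α ChIP-seq and RNA-seq of FG-4592-treated HK2 cells were used, 2 replicates each, grouped by their labels. The 9 genes and the gene lists were chosen with earlier results of these data known.

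The authors mapped RNA-seq reads with HISAT2 and estimated transcripts with StringTie 1.3.3 on GENCODE 27, and the deposited tables hold coverage, FPKM and TPM for each transcript. Their methods name hg19, while the coordinates of the tables are those of GRCh38. For ChIP-seq they trimmed the reads, mapped them with Bowtie2 to hg19, and ran MACS2 on each replicate using reads with a unique position. The deposited peak lists hold positions only, so no peak could be ranked or filtered by score.

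FPKM was summed over the transcripts of each gene, grouped by Ensembl identifier. Coverage was put on the FPKM scale by the constant that links the columns of each table (0.181 and 0.192). Canonical transcripts and GRCh37 positions came from GENCODE 44 mapped to GRCh37, and expression was joined to peaks by Ensembl identifier. No position was converted between builds. Overlaps needed at least 1 bp. The EDA and EDB exons were found as internal exons of known length that some transcripts skip. RefSeq promoters matched 7 of the 9 genes, and that of *VIM* lies before its upstream first exon, which had little coverage.

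The genes named are the 9 markers, their highest pseudogene copy and overlapping genes, up to 5 highest genes of each list, those with promoter peaks in both ChIP-seq replicates or listed at 0, all the transcription factors of the mesenchymal transition, all paralogs, and the nearest gene of a described peak. Others are marked as named after their values were seen. No test was run, since no conditions could be compared. The depth of the peak lists is unknown. Alternatives covered units, thresholds, pseudocounts, transcripts, promoter windows, distances and leaving out each replicate. Code was tested on simulated data and ran on Python 3.11.15 with numpy 2.4.6, pandas 2.3.3, pysam 0.24.0, scipy 1.17.1 and matplotlib 3.10.9.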

Additional observations from a re-analysis of the deposited data

How the results depend on the processing

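The count of 7 markers with a mean of at least 1 FPKM was 7 or 8 under the 6 alternatives, 8 with TPM in place of FPKM, and no marker was over 2-fold apart with another pseudocount, TPM or the largest transcript alone. The log2 ratio of *VIM* to *KRT18* stayed between 4.06 and 4.77, the values without replicate 1 and without replicate 2. That of *CDH2* to *CDH1* ranged from 7.39 to 8.24 when either library was left out and came to 5.65 with a pseudocount of 1, because *CDH1* is small against the pseudocount. The *VIM* ratio of replicate 2 to replicate 1 turned from 0.619 to 1.02 when exons 3 to 10 were used, a choice made after seeing the data. The EDA share moved from 38.8% to 77.2% against the neighbouring exons and to 57.9% against the median inner exon, and the cause was not tested. It was 27.4% without replicate 2 and 50.1% without replicate 1, and EDB was 11.3% and 21.7%.

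No window or start site gave a marker a replicate 1 promoter peak. Promoter peaks in both replicates numbered 0, and leaving out a ChIP-seq replicate gave 0 (without replicate 2) to 7 (without replicate 1). In replicate 2 the count of 7 fell to 2 for peaks with at most 50% of their bases in exons, also chosen after seeing the data. Within 50 kb there were 3 replicate 1 peaks instead of 1. The exon share of replicate 2 peak bases was 86.9% within 50 kb and 76.6% with exons of the marker only, against 84.7%. Of 210 list genes, 142 had a mean of at least 1 FPKM, and 123 to 155 under the alternatives.

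No paired analysis was possible because the labels share replicate numbers only between different assays, and no test compared groups. With 2 libraries an SD is imprecise, and levels under 1 FPKM rest on little coverage.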
